A study of Mus musculus with 30 samples.

Results

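The globins and red cell genes described here are 9 genes: the genes of 3 embryonic globins (Hba-x, Hbb-y, Hbb-bh1), the adult globin genes Hba-a1 and Hbb-b2, and the red cell genes Alas2, Gata1, Klf1 and Epor. They were followed in RNA of mouse dorsal pancreas over 5 stages of development. The rule took every probe set on the 3 chips whose platform annotation gives a single symbol from this list. It found 12 of 36701 probe sets, 11 on chip A and 1 on chip B, so that all 9 genes were represented among the 15964 genes with such a probe set. Hbb-y had 3 probe sets, Gata1 had 2 and each other gene had 1.

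RNA came from embryos of NMRI mice at embryonic day 12.5 (e12.5), e13.5, e14.5, e15.5 and e16.5, and the labels name no transgene or treatment. The dorsal pancreatic buds of a litter were pooled, each stage's RNA was labelled with biotin in 2 reactions, and each reaction was read on 3 Affymetrix chips (MG-U74v2 A, B and C), giving 30 arrays. A stage was taken as 1 pool measured in 2 reactions per chip. The labels do not say how many litters stand behind a stage: 1 pool is read from the 2 reactions made per pool and the 2 arrays held per stage and chip. On that reading, which sets the n = 5 of the trend, reactions differ for technical reasons alone, and stage and pool cannot be told apart.

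Red cells of the mouse embryo come in successive waves. Primitive red cells arise in the yolk sac and carry embryonic globins, while definitive red cells are made in the fetal liver and carry adult globins. Haemoglobin pairs alpha-like chains, encoded in the Hba cluster, with beta-like chains, encoded in the Hbb cluster. Circulating red cells reach the pancreatic bud in its blood vessels. In whole-tissue RNA, fewer red cells and less of a transcript per red cell cannot be told apart.

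On GRCm38.p6, in the RefSeq annotation, Hba-x lies at chr11:32276600-32278116 and Hba-a1 at chr11:32283672-32284486. Hbb-bh1 lies at chr7:103841638-103843162 and Hbb-y at chr7:103851754-103853207. The position listed for Hbb-b2 is not on the same sequence as this cluster and is not used here. Alas2 lies at chrX:150547417-150570622, Gata1 at chrX:7959260-7976663, Klf1 at chr8:84901982-84905291 and Epor at chr9:21958897-21963576. The exons that each probe set covers were not analysed here.

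The sequences just before the start of 4 members are shown because Hbb-y and Hba-x fell together while Hba-a1 and Alas2 rose. They are the 250 bases before the RefSeq start on GRCm38.p6, printed 5′ to 3′ on the strand of the gene. Capitals mark matches to letters that the GATA1 protein is known to recognise, here called GATA words, and to a CACCC box of the kind that KLF1 recognises, each searched on either strand. One spelling searched for the first was AGATAA, and another that was counted in the same way was AGATAG. The spellings that begin with a different letter were also searched, and these were TGATAA and, differing from it at the end alone, the word TGATAG. The box of the second kind was searched with the single spelling CCACCC. The windows are chr7:103853208-103853457 on the minus strand for Hbb-y, chr11:32276350-32276599 on the plus strand for Hba-x, chr11:32283422-32283671 on the plus strand for Hba-a1 and chrX:150547167-150547416 on the plus strand for Alas2.
Hbb-y: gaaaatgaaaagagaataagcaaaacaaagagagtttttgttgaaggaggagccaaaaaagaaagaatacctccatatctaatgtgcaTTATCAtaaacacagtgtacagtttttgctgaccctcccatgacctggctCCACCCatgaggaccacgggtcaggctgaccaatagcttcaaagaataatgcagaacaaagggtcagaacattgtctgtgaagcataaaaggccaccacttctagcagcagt
Hba-x: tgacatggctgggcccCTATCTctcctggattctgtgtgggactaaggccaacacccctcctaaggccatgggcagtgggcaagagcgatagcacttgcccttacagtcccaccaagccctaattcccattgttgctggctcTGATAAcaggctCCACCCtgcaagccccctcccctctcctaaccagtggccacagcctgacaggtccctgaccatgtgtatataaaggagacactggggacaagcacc
Hba-a1: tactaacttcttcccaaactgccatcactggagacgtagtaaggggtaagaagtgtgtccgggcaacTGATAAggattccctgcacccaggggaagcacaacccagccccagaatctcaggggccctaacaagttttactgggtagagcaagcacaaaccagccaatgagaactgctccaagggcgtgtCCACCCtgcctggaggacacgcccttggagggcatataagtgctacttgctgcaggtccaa
Alas2: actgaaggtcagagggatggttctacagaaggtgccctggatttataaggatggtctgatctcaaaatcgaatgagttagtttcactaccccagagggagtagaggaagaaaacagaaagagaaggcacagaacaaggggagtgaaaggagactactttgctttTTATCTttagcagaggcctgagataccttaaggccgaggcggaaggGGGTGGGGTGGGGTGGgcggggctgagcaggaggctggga

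All 4 windows held both words, so falling and rising members did not differ in that. The GATA word nearest the start began 162 bases before it in Hbb-y, 108 in Hba-x, 183 in Hba-a1 and 86 in Alas2. Alas2 had 3 overlapping CCACCC matches on the minus strand, and Hba-x had a second GATA word 234 bases before the start. A window was held for 7 of the 9 members, and 6 of the 7 had a GATA word (all but Gata1) and 6 had CCACCC (all but Klf1). The Gata1 window, chrX:7967911-7968160 on the minus strand, lies inside the span given above for the gene. It is thus not the sequence before the outermost start of Gata1. The Klf1 window holds CACCC after another letter. Of 32851 windows of the same length in the RefSeq promoter table, 26.5% held a GATA word and 28.1% held CCACCC. The word CCAAT, the core of a box common in globin promoters and left in lower case above, was in Hbb-y, Hba-a1 and Klf1 and in 33.8% of all windows. A match describes the letters and is no binding site.

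The change over the 5 stages was first tested as a trend: limma fitted a straight line through the 5 pool means, given here as the fitted log2 change over 4 days with its SE (n = 5 pools). Adjusted p-values (Benjamini-Hochberg, over all 36701 probe sets) were held to a threshold of 0.05. Of the 12 member probe sets 4 fell, 3 rose and 5 did not pass. Over all probe sets 13.1% fell and 10.6% rose. The falls were all in embryonic globin genes, and the rises were in both adult globin genes and in Alas2.

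Hba-x encodes zeta globin, the alpha-like chain of primitive red cells. Its log2 values in the 2 reactions were 11.88 and 11.86 at e12.5, 10.82 and 10.77 at e13.5, 10.05 and 10.15 at e14.5, 8.47 and 8.30 at e15.5, and 6.36 and 6.41 at e16.5. Each stage lay below the one before it with no overlap between reactions. The fitted change was -5.35 ± 0.42 (limma adjusted p = 0.000725). Its probe set went from rank 64 by brightness among the 12422 of chip A at e12.5 to rank 4725 at e16.5.

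Hbb-y encodes epsilon-y globin, a beta-like chain of primitive red cells, and had 2 bright probe sets on chip A, of which 1 is unique by its Affymetrix name and 1 (suffix f_at in the plots) is shared by a family of similar sequences. On the unique probe set the values were 12.02 and 12.12 at e12.5, 11.08 and 11.16 at e13.5, 10.16 and 9.99 at e14.5, 8.19 and 8.09 at e15.5, and 5.70 and 5.73 at e16.5. The last pair lay at the chip's median of 5.74. The fitted change was -6.28 ± 0.52 (limma adjusted p = 0.000869). No detection calls come with these values, so a level at the median is not shown to be above background, and this change can be understated.

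The family probe set of Hbb-y read 13.14 and 13.17 at e12.5, 12.55 in both reactions at e13.5, 11.88 and 11.92 at e14.5, 10.01 and 10.05 at e15.5, and 7.44 and 7.58 at e16.5. Its fitted change of -5.52 ± 0.68 (limma adjusted p = 0.00316) was smaller in size than that of the unique probe set. Both were read on the same pools, and their difference was not tested. At e12.5 it was the 6th brightest probe set of chip A, where signal can saturate. The e16.5 mean lay 1.77 above the chip's median, whereas that of the unique probe set lay at it.

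A further Hbb-y probe set, on chip B, did not follow the others. It lay between 2.88 and 3.43 on all 10 arrays, below the chip B median of 5.29, and its fitted change was 0.38 ± 0.12 (limma adjusted p = 0.0513). Its Affymetrix suffix marks a probe set with fewer probes than usual. At e12.5, when both chip A probe sets of the gene were among the brightest 51 of 12422, it ranked 11617 of 12411 on its own chip. Levels are not compared between chips, since each chip was held as normalized on its own.

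Hbb-bh1 encodes beta-h1 globin, another embryonic beta-like chain. Its values were 8.25 and 8.10 at e12.5, 7.44 and 7.37 at e13.5, 7.14 and 7.15 at e14.5, 6.76 and 6.85 at e15.5, and 6.85 and 6.72 at e16.5. It fell at the first 3 steps without overlap of the reactions and was level at the last, where they overlapped. The fitted change was -1.35 ± 0.21 (limma adjusted p = 0.00724), smaller than those of Hbb-y and Hba-x. At e16.5 the mean still lay 1.05 above the chip's median.

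**Figure D1:**
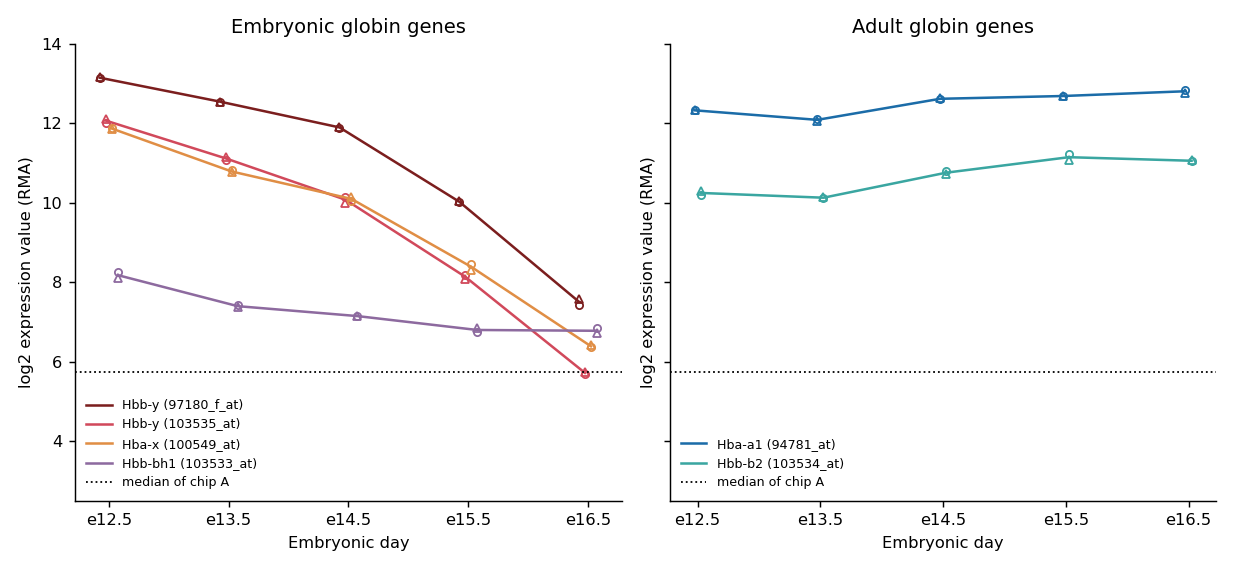
Log2 expression values (y axis) of the globin probe sets of chip A at the 5 embryonic stages (x axis). Circles and triangles are labelling reactions 1 and 2, drawn with a small sideways shift, lines join the pool means, and the dotted line is the median of chip A, 5.74. Hbb-y and Hba-x drop more steeply with each day after e14.5, Hbb-bh1 levels off near 6.8, and the adult genes stay above 10 throughout.

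The steps between consecutive stages were set side by side as differences of pool means, with no test. Hba-x fell by 1.08, 0.69, 1.71 and 2 log2 units at the successive steps. Hbb-y fell by 0.96, 1.04, 1.94 and 2.42 on the unique probe set and by 0.60, 0.65, 1.87 and 2.52 on the family probe set. The steps after e14.5 were thus larger than those before it on all 3 probe sets, and the step from e15.5 to e16.5 was a 3.99-fold drop for Hba-x and a 5.36-fold drop for Hbb-y on the unique probe set, a fold that can be understated since its e16.5 level is not shown to be above background. Hbb-bh1 had the opposite order, with its largest step, 0.77, from e12.5 to e13.5 and only 0.02 from e15.5 to e16.5.

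**Figure D2:**
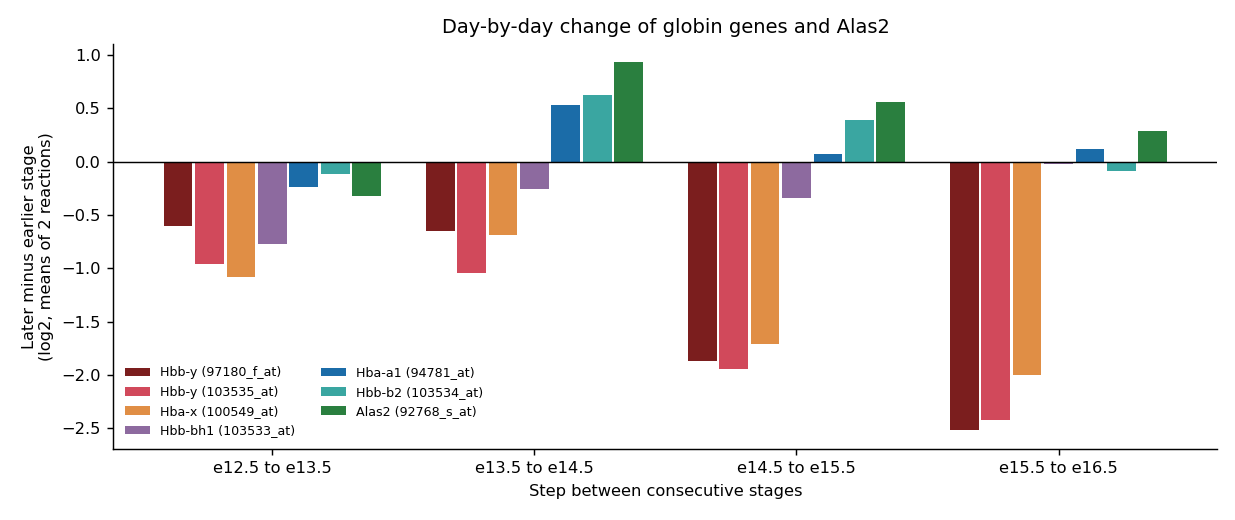
Difference between the pool means of consecutive stages (y axis, log2, later minus earlier) for the globin genes and Alas2 at each of the 4 steps (x axis), 1 bar per probe set. Bars of Hbb-y and Hba-x reach -2 to -2.52 at the last step, and those of Alas2, Hba-a1 and Hbb-b2 are below 0 at the first step and highest at the second.

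The bend of these falls was tested by setting e14.5 against the mean of e12.5 and e16.5 (limma, stage as a factor over the 10 arrays of a chip, with calls at an adjusted p under 0.05 and at least 2-fold). The difference was 1.57 ± 0.06 for Hbb-y on the family probe set (limma adjusted p = 1.35e-08) and 1.18 ± 0.06 on the unique one (limma adjusted p = 6.6e-07). It was 0.97 ± 0.06 for Hba-x (limma adjusted p = 1.98e-06), just short of 2-fold, and 1.02 without e14.5 replicate 1, where it was called. Hbb-bh1 bent the other way by -0.33 ± 0.06 (limma adjusted p = 0.00509), short of 2-fold. Called higher were 2 of the 12 member probe sets, against 0.0817% of all, and called lower were 0, against 0.136%. With no fold minimum 3 were called higher, against 7.09% of all, and 1 lower, against 4.91%. SEs of this fit hold labelling noise alone, since each stage has 1 pool.

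Adult alpha globin, the alpha-like chain of definitive haemoglobin, is encoded by Hba-a1 and by a near-identical copy, so its probe set can hold signal of both. Its values were 12.34 and 12.33 at e12.5, 12.10 and 12.07 at e13.5, 12.61 and 12.63 at e14.5, 12.70 and 12.68 at e15.5, and 12.84 and 12.77 at e16.5. It dropped by 0.24 from e12.5 to e13.5, rose by 0.53 to e14.5 and changed by 0.07 and 0.12 after that. The fitted change of 0.62 ± 0.18 passed narrowly (limma adjusted p = 0.0477). With a pool left out it did not pass at 0.64 (adjusted p = 0.179) for e16.5, 0.60 (adjusted p = 0.0954) for e15.5 and 0.62 (adjusted p = 0.0586) for e14.5. It also missed the threshold without 1 array at each stage (adjusted p of 0.05 to 0.0568). The probe set stayed among the brightest 53 of chip A at every stage, so its change can be understated by saturation.

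Hbb-b2 encodes an adult beta chain, which differs little in sequence from the other adult beta genes. The values were 10.19 and 10.30 at e12.5, 10.12 and 10.15 at e13.5, 10.79 and 10.72 at e14.5, 11.23 and 11.07 at e15.5, and 11.06 and 11.07 at e16.5. The reactions of the first and second stages lay below those of all later stages. The fitted change was 1.06 ± 0.21 (limma adjusted p = 0.0156), and it kept passing without any 1 pool or array, at 0.90 to 1.33. Most of it came between e13.5 and e15.5, in steps of 0.62 and 0.39, and the last step was -0.09.

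Alas2 encodes the red cell form of 5-aminolevulinate synthase, the first and rate-limiting enzyme of haem synthesis. Its values were 7.68 and 7.66 at e12.5, 7.38 and 7.31 at e13.5, 8.30 and 8.26 at e14.5, 8.81 and 8.87 at e15.5, and 9.15 and 9.11 at e16.5. It dropped at the first step and rose at each of the next 3, by 0.93, 0.56 and 0.29, with no overlap between neighbouring stages. The fitted change was 1.77 ± 0.29 (limma adjusted p = 0.00846), and with the e16.5 pool left out it was 1.78 (adjusted p = 0.0588). Its probe set is of a design shared by more than 1 sequence. Alas2, Hba-a1 and Hbb-b2 were all lowest at e13.5 and all had their largest step from e13.5 to e14.5, while the embryonic globin genes fell at both of these steps.

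Direct comparison of the end stages, e16.5 against e12.5, used the same fit over 10 arrays and the same calls. Of the 12 probe sets 4 were lower, against 3.03% of all, and 1 was higher, against 1.44%. The lower ones were those of Hba-x (-5.48 ± 0.07), Hbb-y (-6.36 ± 0.07 and -5.65 ± 0.06) and Hbb-bh1 (-1.39 ± 0.07), with limma adjusted p up to 2.26e-08. Alas2 was higher by 1.46 ± 0.06, or 2.75-fold (limma adjusted p = 2.95e-09). Hbb-b2 (0.82 ± 0.07) and Hba-a1 (0.47 ± 0.06) were higher by less than the 2-fold minimum.

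The remaining members are regulators. GATA1 is the transcription factor that directs red cell and megakaryocyte genes, KLF1 switches on adult beta globin and other red cell genes, and EPOR is the receptor for erythropoietin. Gata1 read 5.04 to 5.52 over the 10 arrays on one probe set and 4.96 to 5.42 on the other. On both probe sets each e16.5 reaction was above every reaction of the earlier stages, yet all values lay below the chip's median. The fitted changes were 0.25 ± 0.13 (limma adjusted p = 0.211) and 0.34 ± 0.12 (limma adjusted p = 0.0766).

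Klf1 read 5.91 and 5.82 at e12.5, 5.78 and 5.80 at e13.5, 5.85 and 5.90 at e14.5, 5.97 and 6.05 at e15.5, and 6.08 and 6.16 at e16.5. Its pool means lay 0.05 to 0.38 above the chip's median, and the fitted change was 0.29 ± 0.10 (limma adjusted p = 0.0862). Epor lay between 5.42 and 5.72 on the 10 arrays, with a fitted change of 0.08 ± 0.13 (limma adjusted p = 0.684) that turned to -0.16 without the e16.5 pool. These 3 genes and the chip B probe set of Hbb-y made up the 5 probe sets that did not pass. Their values are near or below the chip's median, where a change in a scarce transcript can go unseen.

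**Figure D3:**
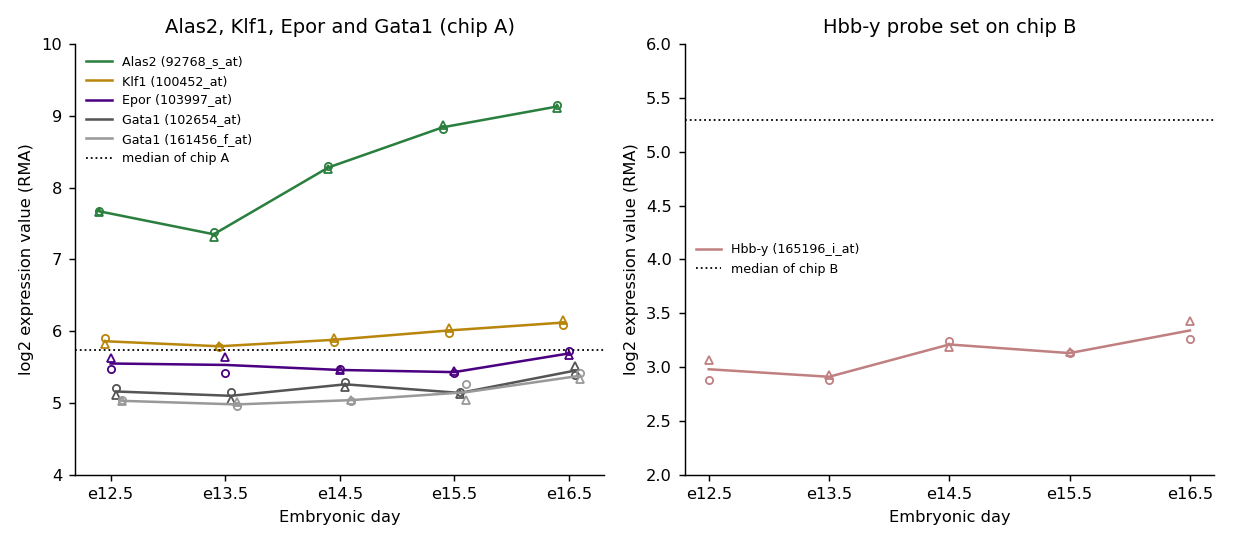
Log2 expression values (y axis) at the 5 embryonic stages (x axis) for Alas2, Klf1, Epor and both Gata1 probe sets on chip A (left) and for the Hbb-y probe set of chip B (right). Circles and triangles are labelling reactions 1 and 2, lines join the pool means, and dotted lines are the chip medians, 5.74 and 5.29. Alas2 climbs from its low at e13.5 to 9.13 at e16.5 while the others stay near or below the median.

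**Figure D4:**
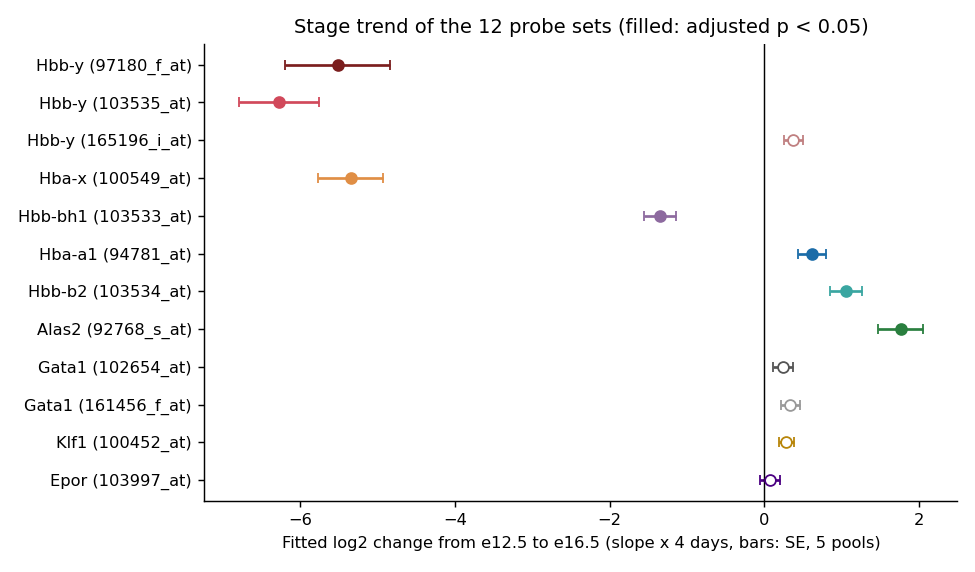
Fitted log2 change from e12.5 to e16.5 (x axis) for each of the 12 probe sets (y axis), with bars of 1 SE from the fit over 5 pool means and filled points where the adjusted p was under 0.05. The chip A probe sets of the embryonic globins lie left of 0 by 1.35 to 6.28, the chip B probe set of Hbb-y lies right of it by 0.38, and Hba-a1, Hbb-b2 and Alas2 lie right by 0.62 to 1.77.

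For each member that ranged over more than 1 log2 unit, the genes with the nearest pattern were found among the 15955 others, by the root mean square distance between pool means after centring each gene on its own mean. For Alas2 the nearest were Fkbp2 (0.16), Abcb6 (0.17) and Rexo2 (0.17), against a median distance of 0.67. Abcb6, which encodes a porphyrin transporter of the haem pathway, had pool means of 4.65, 4.64, 5.14, 5.65 and 6.11. For Hbb-b2 the nearest was Slc25a37 (0.06), which encodes mitoferrin-1, the carrier that brings iron into the mitochondria of developing red cells, then Cracdl (0.08) and Hsd17b14 (0.08), with a median of 0.42. Slc25a37 had pool means of 7.29, 7.09, 7.73, 8.11 and 8.18 and a fitted change of 1.12 ± 0.20 (limma adjusted p = 0.00606), with a drop at e13.5 as in Hbb-b2. Its other probe sets, at 0.24 ± 0.19 and 0.25 ± 0.10, did not pass.

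For Hbb-bh1 the nearest were Mmd (0.05), Wasf1 (0.07) and Cemip2 (0.07), with a median distance of 0.52. Hmga2, Amot and Grb10 were nearest to both Hba-x, at 0.74, 0.81 and 0.95 (median 1.94), and the family probe set of Hbb-y, at 0.89, 0.94 and 0.99 (median 2.06). They fell by 3.36, 3.18 and 2.77, and the fall of Grb10 was 2.56 (adjusted p = 0.0607) with the e13.5 pool left out and 1.55 (adjusted p = 0.167) with e16.5 left out. These distances are over 5 points that share their pools and are a description.

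Other globin and red cell genes were followed on 7 lists, with 1 probe set per gene, the brightest. Of 88 genes measured 17 rose, 9 fell and 62 did not pass, that is 19.3% rising and 10.2% falling, beside 11.9% and 17.0% of all 15964 genes. Their median change was 0.09, beside 0.02 over all genes. The 88 include 3 globin genes that are not blood globins, without which 15 of 85 genes rose (17.6%) and 9 fell (10.6%). With 1 pool left out, rising genes numbered 7 (e13.5), 9 (e16.5), 10 (e12.5) and 11 (e14.5). Calls over all probe sets became fewer too: 2207 (e13.5), 1275 (e16.5) and 1874 (e12.5) rose, against 3886 with all pools. Of 23 listed genes with a passing slope that the naming rule picked, 13 lost the call without some pool. Many of these genes are also active outside red cells.

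In haem synthesis 5 of 11 genes rose and none fell, with a median change of 0.23. Abcb6 rose by 1.57 ± 0.17 (limma adjusted p = 0.000869), though its values lay below the chip B median at the first 3 stages. Cpox, which encodes coproporphyrinogen oxidase, rose by 1.39 ± 0.20 (limma adjusted p = 0.00508), and by 1.16 ± 0.14 on its other probe set. Abcb10, a mitochondrial transporter that stabilises mitoferrin-1, rose by 0.68 ± 0.14 on one probe set and had -0.08 ± 0.09 on the other. With e12.5 left out it was 0.48 (adjusted p = 0.131), and with e16.5 left out 0.59 (adjusted p = 0.114). Alas1, the form of the first enzyme used by all cells, had a change of -0.22 ± 0.09 (limma adjusted p = 0.115), and its difference from Alas2 was not tested.

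Of 10 genes of iron uptake and storage 2 rose, 2 fell and 6 did not pass, with a median change of 0.13. Besides Slc25a37, the iron transporter gene Slc11a2 rose by 0.57 ± 0.15 (limma adjusted p = 0.035), and did not pass with 1 pool left out at 0.43 (e16.5, adjusted p = 0.219), 0.49 (e13.5, adjusted p = 0.0845) and 0.55 (e15.5, adjusted p = 0.0736). The other probe set of Slc11a2 did not pass, at 0.65 ± 0.25. The iron exporter gene Slc40a1, strong in macrophages that recycle red cells, fell by 1.77 ± 0.39 (limma adjusted p = 0.0143), but by 0.96 (adjusted p = 0.178) without the e12.5 pool. Ireb2, which encodes an iron regulatory protein, fell by 0.89 ± 0.16 (limma adjusted p = 0.0106), and with e16.5 left out its change was -0.65 (adjusted p = 0.0799). The transferrin receptor gene Tfrc had a change of 0.25 ± 0.12 (limma adjusted p = 0.164).

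Of 20 genes of the red cell membrane and skeleton 2 rose, 2 fell and 16 did not pass, with a median change of 0.12. The water channel gene Aqp1 rose by 0.51 ± 0.13 (limma adjusted p = 0.0346) but did not pass with e12.5, e13.5 or e14.5 left out, and the spectrin gene Sptb rose by 0.36 ± 0.10 (limma adjusted p = 0.0378) but did not pass with any 1 pool left out. The other probe set of each did not pass, at 0.22 ± 0.10 for Aqp1 and 0.26 ± 0.09 for Sptb. Gypc, which encodes glycophorin C, fell by 0.93 ± 0.11 (limma adjusted p = 0.00153). The adducin gene Add1 fell by 0.77 ± 0.13 (limma adjusted p = 0.00857), and with e16.5 left out the change was -0.65 (adjusted p = 0.066). The anion exchanger gene Slc4a1 had 0.07 ± 0.08 on its brighter probe set and 0.38 ± 0.19 on the other. The protein 4.2 gene Epb42 and the Rhesus-associated glycoprotein gene Rhag, both specific to red cells, lay below the chip's median at each stage on their brightest probe sets. They were among 4 of the 20 genes that did so, beside 4909 of all 15964 genes. The Rhesus gene Rhd, at 5.77 to 6.32, lay above the chip A median of 5.74 at each stage.

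Of 17 red cell transcription factor genes 1 rose, 3 fell and 13 did not pass, with a median change of 0.05. The largest falls were in Bcl11a and Sox6, whose products silence embryonic globin genes in definitive red cells. Bcl11a fell by 1.43 ± 0.16 (limma adjusted p = 0.00115), from 7.32 to 5.76, and Sox6 by 1.21 ± 0.13 (limma adjusted p = 0.00083), from 8.11 to 6.87. Both fell on a second probe set as well, by 0.65 ± 0.15 and 0.53 ± 0.09, while 1 more of each did not pass. Both genes are also active in neurons or other cells, and which cells of the bud gave this RNA was not tested. Ldb1 fell by 0.74 ± 0.12, and Gfi1b had 0.38 ± 0.11 (limma adjusted p = 0.0473), which did not pass without any 1 of the pools other than e15.5. The pool means of Gfi1b, 4.94 to 5.37, all lay below the chip's median of 5.74.

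Of 11 genes of erythropoietin and Kit signalling 1 rose and none fell, with a median change of 0.03. Stat5a rose by 0.76 ± 0.16 (limma adjusted p = 0.0194), with 0.75 (adjusted p = 0.0579) when e13.5 was left out and 0.40 (adjusted p = 0.0742) when e16.5 was, and with 0.28 ± 0.14 on its other probe set. Of 16 other red cell proteins 4 rose and 2 fell, with a median change of 0.12. Selenbp1 rose by 1.15 ± 0.15 (limma adjusted p = 0.0035) and Mkrn1 by 0.86 ± 0.10 (limma adjusted p = 0.00244). Of the 8 probe sets of Mkrn1 3 rose and 5 did not pass, among them 1 on chip C at 0.06 ± 0.07. Bpgm rose by 0.72 ± 0.18 (limma adjusted p = 0.0323) but did not pass with e13.5, e15.5 or e16.5 left out, and its other probe set had 0.65 ± 0.34, which did not pass. Xpo7 fell by 0.58 ± 0.14 (limma adjusted p = 0.0281) but did not pass with e13.5 or e16.5 left out. The antioxidant gene Prdx2 fell by 0.81 ± 0.12 (limma adjusted p = 0.00518), with 1 of its other 4 probe sets falling and 1 rising. Of 3 further globin genes, none of them a blood globin, Cygb rose by 0.37 ± 0.10 and Ngb by 0.28 ± 0.07 (limma adjusted p = 0.0356 and 0.0262), and Cygb lost the call without any 1 of the pools other than e13.5, Ngb without e12.5, e13.5 or e16.5. The other probe set of Ngb had -0.05 ± 0.11. Those of Cygb had 0.43 ± 0.11, which passed, and 0.32 ± 0.12, which did not.

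**Figure D5:**
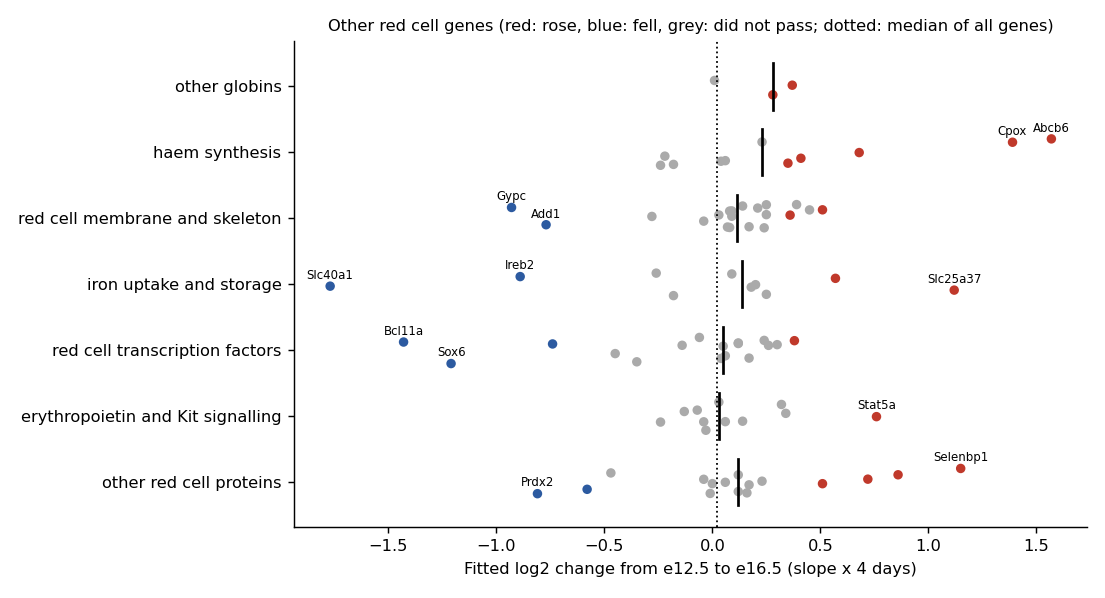
Fitted log2 change from e12.5 to e16.5 (x axis) of each measured gene on the 7 lists of other red cell genes (y axis, points spread at random within a list). Red points rose, blue points fell and grey points did not pass, black bars are list medians and the dotted line is the median of all genes, 0.02. Abcb6 (1.57) and Cpox (1.39) lie furthest right and Slc40a1 (-1.77) furthest left.

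Marker lists of cells that could come with the bud were read beside these results. Over all 15964 genes 11.9% rose, 17.0% fell and 4909 were under their chip's median throughout. Of 10 pancreas epithelium genes 6 rose, 2 fell and 2 did not pass. Cpa1, an acinar enzyme gene, went from 10.75 to 13.31, while Gcg, the glucagon gene, fell by 0.97 ± 0.20 (limma adjusted p = 0.0138) and Sox9, a progenitor factor gene, by 0.74 ± 0.16 (limma adjusted p = 0.0149). Pdx1, a defining factor of the early pancreas, lay between 5.50 and 6.21, near the chip's median. Of 13 liver genes 2 rose, 1 fell and 7 were under their chip's median throughout. Alb, the albumin gene of hepatocytes, was among both the 7 and the rising genes: it rose by 1.11 ± 0.21 (limma adjusted p = 0.0132), with pool means of 4.46, 4.47, 4.66, 4.94 and 5.62, in the same direction as the adult globin genes. The other rising gene was Hnf4a (0.67 ± 0.15, limma adjusted p = 0.0154). The largest change on the list went the other way: Serpina1b fell by 1.89 ± 0.25 (limma adjusted p = 0.00402). The remaining 10 liver genes did not pass. The fetal liver gene Afp lay between 6.13 and 6.32, with a change of 0.11 ± 0.11 (limma adjusted p = 0.511). The summed level of the 9 liver genes on chip A ranged over the stages from 9.06 to 9.56 in log2 units, with 9.46 at e12.5 and 9.06 at e16.5. Of 9 platelet and megakaryocyte genes 1 rose and none fell, and 5 were under their chip's median throughout, among them Pf4 at 3.82 to 4.13. Of 15 leukocyte genes 1 rose and 2 fell, with a summed level on chip A of 10.29 at e12.5 and 10.96 at e16.5. The e16.5 pool stood apart in genes of neutrophils and other myeloid cells: from e15.5 to e16.5 S100a8 went from 5.86 to 8.70, S100a9 from 4.57 to 7.36 and Lyz2 from 4.72 to 5.91. Hbb-y and Hba-x had their largest drop at this same step. Their fitted falls kept passing with the e16.5 pool left out, a fit that does not cover this step. With 1 pool at e16.5, the step cannot be told apart from a property of that pool. Of 11 endothelial genes 2 rose and 4 fell, with 9.88 at e12.5 and 9.71 at e16.5 for the 9 on chip A. The 3 spleen bud genes had a summed level of 7.89 at e12.5 and 7.65 at e16.5. Among them Barx1 had another probe set, not in the sum, that fell from 6.94 to 5.21 (-1.74 ± 0.09, limma adjusted p = 0.000297). How much blood, blood vessel or neighbouring tissue each pool held, and its part in the globin values, was not tested.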

How the data were processed

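Per the submitters' processing notes, the deposited values were made with RMA, a method that gives arrays a common distribution. The authors deposited 1 log2 value per probe set and array, the log base being inferred from the range of the values. Software, version and genome build are not given in the sources used here. RMA removes differences in overall brightness between arrays. The median of an array was 5.71 to 5.76 for chip A, 5.26 to 5.31 for chip B and 3.99 to 4.02 for chip C. Correlations between both reactions of a stage ran from 0.9957 to 0.9984. Precision about a stage is limited by its 1 pool, on the reading given above, more than by the number of arrays.

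Gene names came from the GEO platform table, with symbols updated through Entrez identifiers to RefSeq: 29131 of 36701 had 1 symbol, 724 several and 6846 were unnamed here. Tests used limma 3.58.1 in R 4.3.3 across all probe sets, each chip fitted on its own and the 3 chips adjusted together. The trend used the mean of both reactions of a stage. Contrasts used stage as a factor. Functions were tested on simulated data. A gene was represented by its brightest probe set. Genes were named by rule: all members, up to 3 passing rises and falls of each red cell list, and the 3 nearest patterns of each member. Tfrc, Alas1, Slc4a1, Epb42, Rhag, Rhd and the marker genes of other cell types were named after their values were seen. The members and lists were chosen with earlier results of these data known.

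Within a chip, same-numbered reactions of different stages did not deviate together. Correlations of deviations from the stage mean were -0.18 to 0.11 over 10 pairs of stages per chip. This cannot exclude a pairing by number, and pairing across chips was not examined. The main fits did not use the numbers. Promoter sequences came from RefSeq (GRCm38.p6).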

Additional observations from a re-analysis of the deposited data

How the results depend on the processing

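The 4 falls of the stage trend passed under all settings run, and the rises were less firm. Without 1 array or pool, member probe sets rising numbered 1 to 3 and falling 4, those of all probe sets 1275 to 4035 and 2278 to 4999, and red cell list genes 7 to 17 rising and 7 to 11 falling. The lowest counts of all probe sets came without the e16.5 pool, and all rising ones were 1874 with e12.5 and 2207 with e13.5 left out. With bright probe sets only, which leaves out Gata1, Epor and the chip B probe set of Hbb-y, 2143 of all rose. Hba-a1 did not pass with quantile normalization again (0.55, adjusted p = 0.0948) or an intensity trend in the prior variance (adjusted p = 0.0562). The chip B probe set of Hbb-y passed upward with that trend (adjusted p = 0.0332), with adjustment within each chip (0.0373), and without e12.5 replicate 2 (0.0296), e16.5 replicate 1 (0.0359) or the e15.5 pool (0.0495). Fitted to 10 arrays without averaging, 6 member probe sets rose, 7957 of all rose and 7538 fell, and 26 listed genes rose and 16 fell. With the replicate block on 10 arrays these were 6, 7580, 7313, 26 and 16, and with the pool as a random block 6 members rose as well. The additional members were Klf1, 1 Gata1 probe set and the chip B probe set of Hbb-y. In the contrasts the replicate block changed no member's call.

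For e16.5 against e12.5, 1 array left out gave 1 member higher and 4 lower, with 525 to 545 and 1090 to 1183 of all. A lone array of a stage is then assumed to vary like the others. Cyclic loess gave 2 members higher, adding Hbb-b2 (1.03). With no fold minimum 7 members were higher, and of all 9687 higher and 8594 lower, and with 1.5-fold 2, 1598 and 3303. For e14.5 against the ends, 1 array left out gave 2 to 3 members higher and 0 lower, with 27 to 34 and 49 to 54 of all. With no fold minimum 1 member was lower, and of all 2601 higher and 1802 lower, and with 1.5-fold 165 and 163. Under cyclic loess Hba-a1 turned to -0.03 there. Epor's trend ran from -0.16 (without the e16.5 pool) to 0.18 with 1 array or pool left out. Other causes were not tested. Dim probe sets limit what Gata1, Klf1 and Epor can show.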

Other observations

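Besides the members, 4 probe sets list several globin symbols each and so stand for no single gene. Those on chip A that list the adult beta genes were at 12.51 at e12.5 and 13.27 at e16.5 on the brighter (0.84 ± 0.17, limma adjusted p = 0.0149) and at 2.76 and 2.96 on the dimmer (0.12 ± 0.10, limma adjusted p = 0.409). Those that list both adult alpha genes were at 9.46 and 10.32 on chip A (0.91 ± 0.17, limma adjusted p = 0.0128) and at 5.95 and 6.43 on chip C (0.53 ± 0.09, limma adjusted p = 0.00607). The bright ones were thus higher at e16.5, as the adult members were. On the brighter adult beta probe set the e13.5 reactions (12.67 and 12.68) lay above those of e12.5 (12.48 and 12.54), whereas on the adult alpha probe set of chip A they lay below (9.29 and 9.37 against 9.45 and 9.48), so the low at e13.5 was not seen on every adult globin probe set.

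That low was looked for after the values were seen. Pool means at e13.5 at least 0.1 log2 units below both neighbouring stages were found in 3 of the 9 members (Hba-a1, Hbb-b2 and Alas2), in 6 of 88 genes on the red cell lists (6.82%) and in 663 of all 15964 genes (4.15%). The 6 were Epb42, Rhd, Slc11a2, Slc25a37, Car2 and Bpgm. A low of that size was not on the other probe sets of Slc25a37, at 5.55, 5.61 and 6.05 and at 5.4, 5.38 and 5.52 from e12.5 to e14.5. Nor was it on those of Epb42, at 3.38, 3.42 and 3.56 and at 3.38, 3.26 and 3.26. The other probe set of Slc11a2 had it, at 5.67, 5.4 and 5.75. Bpgm, the enzyme that makes 2,3-bisphosphoglycerate in red cells, read 6.42, 6.17, 6.51, 6.84 and 6.99, and its second probe set 6.66, 5.87, 6.24, 6.85 and 6.98. Car2, a carbonic anhydrase of red cells and duct cells, read 6.10, 5.54, 5.80, 5.86 and 6.15. With 1 pool a stage, a low at e13.5 cannot be told apart from a property of that pool.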
